A study of Apis mellifera with 12 samples.

Results

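Among 121460 kept cells from dissociated honeybee brains, 826 cells (0.680%) carried at least 2 transcripts of bsh (LOC724801, a brain-specific homeobox gene) and at least 2 of hth (LOC552079, homothorax), and these bsh/hth cells are described here. Transcripts were counted as unique molecular identifiers (UMIs), and a barcode was kept as a cell with 200 to 5000 detected genes, at least 500 UMIs and under 15% mitochondrial UMIs. The brains came from Apis mellifera females of a queen and a worker caste, the workers being nurses, which tended larvae, and foragers, which carried pollen. The queens were artificially reared and inseminated, and nurses and foragers were taken from the same colony. For each of queens, nurses and foragers, 2 single-cell libraries (10X Genomics, each from a pool of whole brains dissociated with papain) and 2 bulk RNA libraries from other pooled brains were measured, all from adult brains, with no genetic change or drug treatment in the labels. One library is therefore 1 pool of animals, and the spread between single animals was not measured.

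In Drosophila, bsh and hth are both homeobox transcription factors that are active together in the columnar neuron Mi1 of the medulla, the second neuropil of the optic lobe. Mi1 is a cholinergic cell of the ON motion pathway, which receives input from the lamina neuron L1 and contacts T4, the first direction-selective cell. The bsh gene without hth marks the lamina neurons L4 and L5 of the fly, whereas hth has wider uses in leg, eye and brain development. In the honeybee genome (Amel_HAv3.1), bsh lies on linkage group 12 at 7915515 to 7923213, and hth on linkage group 5 at 7613463 to 8093347.

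The libraries differed little in size. Each held 17415 to 22019 kept cells and 133937595 to 159610288 UMIs in them, with a median of 4718 to 5971 UMIs per kept cell. Between 87 and 142 kept barcodes recurred in each pair of libraries, and 0 were bsh/hth cells in both libraries of a pair. Recurring barcodes that were bsh/hth cells in only 1 library of a pair were not counted. No doublet caller was run. The bsh/hth cells were deeper than the rest, with medians of 10191 and 8559 UMIs in foragers 1 and 2, 13259 and 8720 in nurses 1 and 2, and 10408 and 9627 in queens 1 and 2. Nurse 1 had the deepest bsh/hth cells, and a rule of 2 UMIs per gene is met more easily by deep cells.

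Because the rule used bsh and hth themselves, their levels serve only as a description. The median bsh/hth cell had 3 UMIs of bsh (highest 12) and 5 of hth (highest 18). In summed counts scaled to a common total (CPM, counts per 1e6 UMIs), bsh was at 244 and 299 in the bsh/hth cells of queens, 255 and 291 in nurses and 332 and 346 in foragers, against 3.98 to 7.83 in the other cells of the 6 libraries. The hth level was 412 to 538 CPM in bsh/hth cells and 58.7 to 86.4 CPM in the others. Of the 826 cells, 404 had 1 of the genes at exactly 2 UMIs, and 854 cells just outside had 1 UMI of bsh with at least 2 of hth. A further 126 cells had 1 UMI of hth with at least 2 of bsh. The homeobox gene cut, which the rule did not use, was at 393 CPM in the 404 cells at the edge, 459 CPM in the 422 cells with at least 3 UMIs of each, 287 CPM in the 854 cells and 259 CPM in the 126 cells. Its level stepped down across the threshold without a break.

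Free RNA can place UMIs of a gene in cells that do not express it, so the same counts were made in Kenyon cells and in glia. The glia bear on bsh only, since more of them than of the Kenyon cells had a UMI of hth, and glia also stood among the cells with hth alone described below. Among cells with at least 50 UMIs of the Kenyon cell gene PLCe per 10000, 1.13% to 2.88% had a UMI of bsh and 7.91% to 11.2% a UMI of hth, and 0.0600% to 0.149% met the rule for both. Their median depth was 5026.5 to 7339 UMIs. Among glia with at least 4 UMIs of repo, 1.89% to 4.96% had a UMI of bsh, 27.1% to 42.5% a UMI of hth, and 0.0% to 0.476% met the rule, at a median of 4677.5 to 7896 UMIs. In each of the 6 libraries as sequenced, the share of all kept cells that met the rule was above the shares among these Kenyon cells and glia. Of the 826 cells, 48 (5.81%) were rich in PLCe, against 36.0% of all kept cells, and 10 were glia by repo.

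The question across castes was whether bsh/hth cells made up a different share of the dissociated brain. They were 0.741% (153 of 20652 cells) and 0.568% (125 of 22019) in foragers 1 and 2, and 1.11% (223 of 20155) and 0.728% (150 of 20606) in nurses 1 and 2. In queens 1 and 2 they were 0.325% (67 of 20613) and 0.620% (108 of 17415). The lowest share was that of queen 1 and the highest that of nurse 1, and queen 2 lay within the range of the workers. With at least 1 UMI of each gene in place of 2, both queens (1.04% and 1.35%) lay below all 4 workers (1.66% to 2.46%), with p = 0.0667 in the exact permutation test, the smallest that the design allows. With cells meeting a looser glia or Kenyon cell rule left out, queens averaged 0.699% and workers 0.736%. As counted by the main rule, queens averaged 0.473% ± 0.209 (SD, n = 2) and workers 0.786% ± 0.228 (SD, n = 4), with p = 0.267 in a two-sided exact permutation test whose smallest possible p is 0.0667. Foragers averaged 0.654% ± 0.122 and nurses 0.917% ± 0.268 (SD, n = 2 each), with p = 0.667 in the exact test, where the smallest possible p is 0.333. The queen minus worker difference of -0.313 points was larger than either SD, but the values overlapped and neither comparison passed the test.

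With each cell thinned to 2500 UMIs, the share was 0.00536% and 0.0613% in queens (1 and 9 cells), 0.0636% and 0.0663% in nurses (12 and 13 cells) and 0.0601% and 0.0519% in foragers (11 cells each). Thinning left out 822 to 2742 shallower cells per library, and gave 0.0% to 0.0166% of the PLCe-rich cells and 0.0% to 0.152% of the glia. In forager 2 the share among glia (0.152% of 660 cells) was then above that of all kept cells (0.0519%). Queen 2 then lay among the workers and queen 1 below them, and nurse 1 no longer stood above nurse 2. With the study's upper limit on UMIs, nurse 1 came to 0.760%. The part of depth in the caste values was not tested further.

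**Figure D1:**
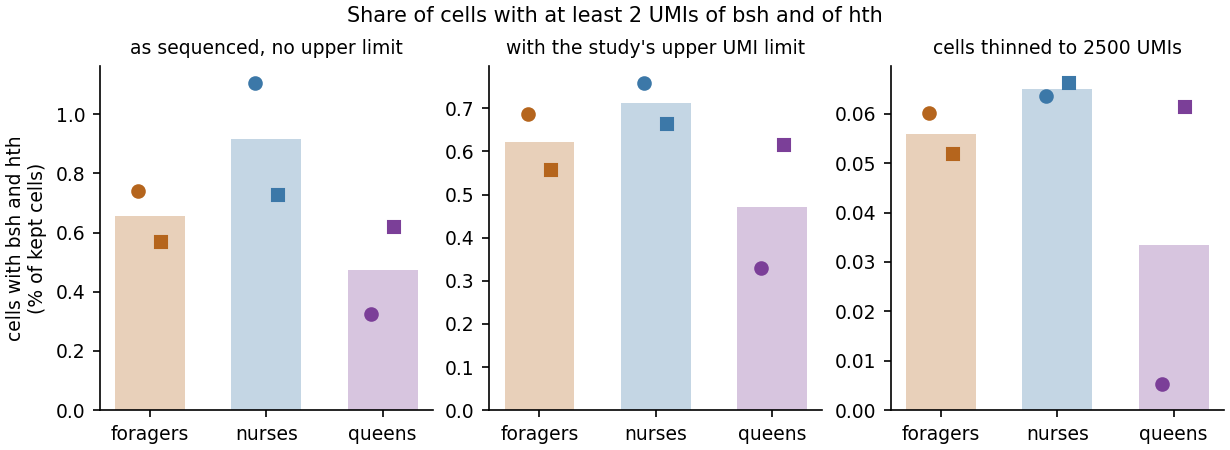
Share of kept cells with at least 2 UMIs of bsh and of hth, in percent, per library (circle, replicate 1; square, replicate 2) with a bar at the caste mean, as sequenced (left), with the study's upper limit on UMIs (middle) and with cells thinned to 2500 UMIs (right). Queen 1, at 0.325%, was lowest and nurse 1, at 1.11%, highest as sequenced, and queen 2 overlapped the workers.

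The label was checked against markers. The neuronal RNA-binding protein gene elav had a UMI in every bsh/hth cell, but also in 99.6% to 99.97% of the other cells of each library. Its level was 2263 to 3159 CPM in bsh/hth cells and 3229 to 4036 CPM in the others, so elav did not set these cells apart. The defining glial marker repo was at 13.0 to 66.8 CPM against 51.1 to 112 in the other cells. All 9 glial markers, 3 of 5 Kenyon cell markers and 2 of 3 tested projection neuron markers were lower than in the other cells, and none was higher. The glial marker zyd, at 0.86 to 3.47 CPM, lost its call with DESeq2, without forager 1, nurse 1 or nurse 2, and at like depth. The projection neuron marker otp, at 0.87 to 5.25 CPM, lost its call at like depth. Both also lost it with the study's upper limit on UMIs. Apart from bsh and hth, the study's list of optic lobe markers holds 9 genes, and none was higher in bsh/hth cells. The list pools markers of several subtypes of optic lobe cell that the study named, Mi1 neurons among them. A single subtype therefore need not carry all 9. Hiscl1, svp, Lim3 and vsx1 were lower, with log2 differences of -1.08 ± 0.15, -1.36 ± 0.20, -1.45 ± 0.20 and -1.76 ± 0.11 (SE), and Lim1, Eaat-1, ninaC, eya and trp did not pass. The optic lobe origin of these cells thus rests here on bsh and hth, the genes that chose them. Of these cells, chosen by their UMIs of bsh and hth, 14 (1.69%) had at least 2 UMIs of Lim3. At least 2 UMIs of Hiscl1 were in 36 (4.36%). The same shares of the other cells were not counted, so whether this overlap is low was not tested. A UMI of Lim3 was in 2.61% to 8.0% of bsh/hth cells and 7.79% to 9.60% of other cells per library. For Hiscl1 these shares were 12.4% to 21.1% and 19.8% to 27.6%. Both genes were found in a smaller share of bsh/hth cells in each library.

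Against all other kept cells, the genes most raised in bsh/hth cells included homeobox genes, a tyramine receptor and a nitric oxide sensor. UMIs were summed per library over bsh/hth cells and over the rest, and compared with the quasi-likelihood test of edgeR with library as a block. A gene was called at a Benjamini-Hochberg adjusted p under 0.01 and a log2 difference over 0.5 in size. Of 10986 genes tested, 602 were higher (5.48%) and 1304 lower (11.9%), 17.3% in all. These shares are the background for the lists below. As bsh and hth chose the cells, both were left out of the test.

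The cut gene (LOC551460, linkage group 6, 17106794 to 17214962), a homeobox factor known in Drosophila for shaping sensory organs and dendrites, was at 322 and 335 CPM in the bsh/hth cells of queens, 458 and 515 in nurses and 457 and 378 in foragers. The other cells of these libraries had 36.0 to 85.1 CPM. The leading genes were named only if all 6 libraries had the same direction. The ranges for cut were far apart, with a log2 difference of 2.89 ± 0.07 (SE, 7.40-fold). Nkx-2.4 (LOC411104, linkage group 5, 9759539 to 9789529), an NK2-class homeobox gene, was at 1088, 1041, 1068, 734, 713 and 987 CPM in foragers 1 and 2, nurses 1 and 2 and queens 1 and 2, against 161 to 224 CPM elsewhere (5.29-fold). Lhx9 (LOC726415, linkage group 11, 11726018 to 11744419), of the LIM homeobox group that includes Drosophila apterous, was at 357, 368, 494, 338, 268 and 376 CPM in the same order, against 57.1 to 109 (2.30 ± 0.08). Nkx-2.4 and Lhx9 were named by the same rule on direction. Of 19 homeobox and related genes tested, these 3 were higher and 12 lower.

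The largest difference among genes of at least 100 CPM was that of LOC727170, annotated as eisosome protein SEG2, at 299 to 468 CPM against 16.9 to 42.5 (16.2-fold, log2 difference 4.01 ± 0.11). The uncharacterized genes LOC410563 (13.3-fold), LOC552195 (9.27-fold), LOC726068 (6.50-fold) and LOC100578368 (6.35-fold) were higher too, named by the same rule on direction. LOC726068 was among the most abundant of them, at 1149 to 1597 CPM in workers and 729 and 1019 CPM in queens, against 170 to 233 elsewhere.

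Other genes among the most raised had known products. The tyramine receptor-like gene LOC410755 was at 76.2 to 149 CPM in bsh/hth cells and 8.61 to 23.5 elsewhere (7.12-fold), whereas TyrR, another tyramine receptor, was lower (log2 difference -1.66 ± 0.11). The sGC-alpha1 gene, a subunit of the cyclase that makes cyclic GMP when nitric oxide binds, was at 93.2 and 115 CPM in queens, 179 and 115 in nurses and 181 and 165 in foragers, against 20.7 to 34.8 (5.39-fold). The crh-BP gene, whose product binds corticotropin-releasing hormone in vertebrates, was 5.24-fold higher, and the netrin receptor gene UNC5B (LOC410246), which guides axons, 5.27-fold. LOC725654, named for a RING finger growth regulator, was at 420.5 to 677 CPM against 82.5 to 130 (5.48-fold). LOC113219156, a long noncoding RNA, was 5.17-fold higher, and meng-po (LOC410562), a protein kinase gene, 4.93-fold.

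**Figure D2:**
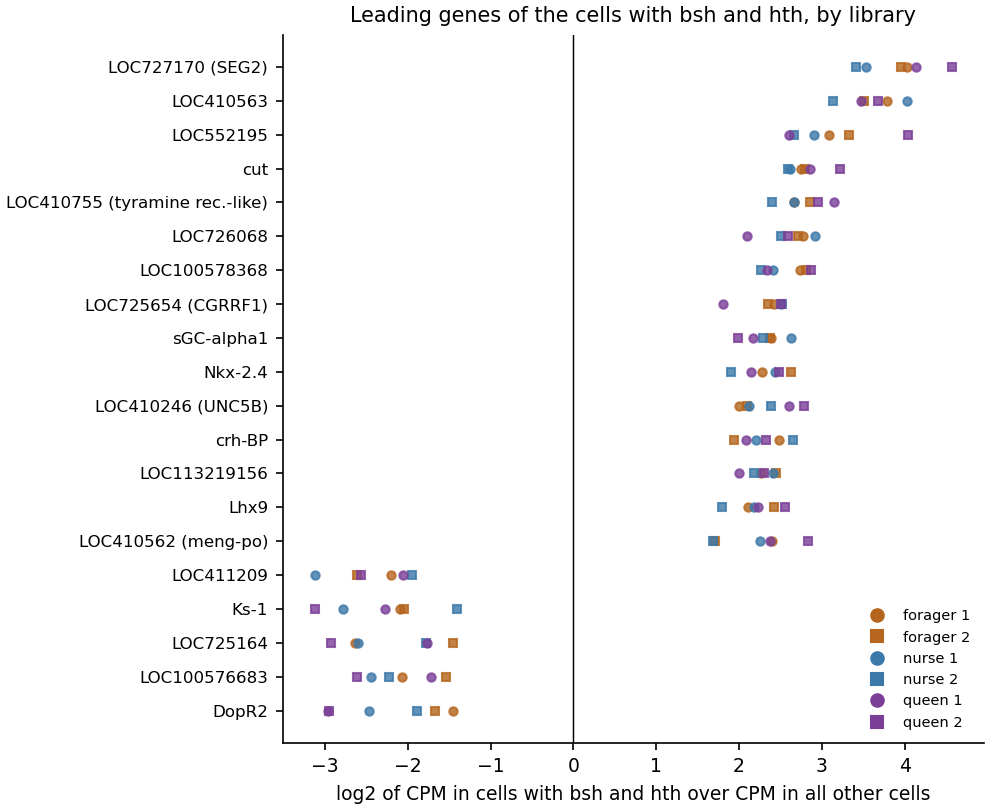
Log2 ratio of CPM in bsh/hth cells to CPM in all other cells, for the leading genes in each of the 6 libraries (colours mark the castes; circle, replicate 1; square, replicate 2). All points lie to the same side for each gene because the genes were chosen with the same direction in all 6 libraries. LOC727170 has the largest mean log2 difference, 4.01.

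Among the genes lowest against other cells was Ks-1, a nuclear noncoding RNA described from Kenyon cells, the intrinsic neurons of the mushroom bodies. It was at 47.6 to 137 CPM against 358 to 415 (log2 difference -2.15 ± 0.13), and the dopamine receptor gene DopR2 at 23.6 to 71.1 against 184 to 229 (3.99-fold lower). LOC411209 (-2.32 ± 0.11), LOC725164 (-2.09 ± 0.13) and LOC100576683 (-2.02 ± 0.10) were lower too. The Kenyon cell markers PLCe and mblk-1 still had summed levels of 868 to 2158 and 963 to 2025 CPM in bsh/hth cells. With cells rich in PLCe or repo left out on both sides, an alternative chosen after seeing the data, 1750 genes were called in place of 1906, of which 1470 were in common.

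Genes for acetylcholine release were higher in bsh/hth cells than in the rest. VAChT, the vesicular acetylcholine transporter, was at 358 and 447 CPM in queens, 632 and 485 in nurses and 744 and 692 in foragers, against 177 to 294 CPM in the other cells. Every library was higher in bsh/hth cells (log2 difference 1.36 ± 0.06), and at least 91.3% of the bsh/hth cells of each library had a UMI of VAChT, against 53.3% to 61.5% of the shallower other cells. ChAT, which synthesizes acetylcholine, was at 154 to 260 CPM against 88.4 to 141 (0.88 ± 0.07). With both sides at like depth, both stayed called.

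Genes of other transmitters were lower. Gad1, the enzyme that makes GABA, was at 38.9 to 73.5 CPM against 137 to 225 (-1.57 ± 0.10), and VGlut, the glutamate transporter, at 28.5 to 50.3 against 46.6 to 77.3 (-0.67 ± 0.09). The monoamine genes Vmat (-0.93 ± 0.16), ple (-1.33 ± 0.15) and DAT (-1.59 ± 0.41) were also lower, and DAT, at 0.0 to 2.59 CPM, was no longer called without forager 1, forager 2, nurse 1 or nurse 2 (adjusted p = 0.015, 0.011, 0.018 and 0.0102, edgeR). The vesicular GABA transporter gene VGAT differed by -0.53 ± 0.08, and its difference dropped below 0.5 in size without forager 2 or nurse 1 (-0.49 in both). With both sides at like depth, VGAT (-0.45) and DAT (adjusted p = 0.030, edgeR) were not called, whereas Gad1, VGlut, Vmat and ple were. With the study's upper limit on UMIs, VGAT (-0.42) and DAT (adjusted p = 0.020, edgeR) were not called either. Tdc2 (0.0 to 6.71 CPM) and TDH (1.31 to 5.25 CPM) did not pass the test. Of 10 genes for transmitter release, 2 were thus higher and 6 lower.

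Receptor lists tilted downward. Of 13 acetylcholine receptor genes 1 was higher and 6 were lower, among them nAChRa6 (-1.72 ± 0.12). Of 8 glutamate receptor genes none was higher and 5 were lower, with mGlutR1 at 24.2 to 69.4 CPM against 97.8 to 116 (-1.24 ± 0.12). All 13 monoamine receptor genes differed, 2 higher and 11 lower. Among 6 receptors for GABA and histamine, the GABA type B receptor subunit LOC410979 was higher, at 269 to 484 CPM against 137 to 299 (1.04 ± 0.06), and Hiscl1 and the chloride channel pHCl were lower. The median log2 difference was -0.51, -1.21, -1.47 and -0.20 for these 4 lists and -0.06 over all genes tested. The lists hold genes that marked clusters of these libraries, so whether receptor genes at large are lower in bsh/hth cells was not tested.

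Ion channels went the other way. Of 16 voltage-gated and potassium channel genes, 8 were higher and 2 lower, with a median log2 difference of 0.47. Amih, the honeybee channel opened by hyperpolarization, was at 786 and 769 CPM in queens, 1365 and 1144 in nurses and 1250 and 1135 in foragers, against 221 to 335 elsewhere (3.94-fold, log2 difference 1.98 ± 0.06). The T-type calcium channel gene LOC551883 (0.96 ± 0.06) and the potassium channel gene LOC413503 (1.13 ± 0.06) were higher, and a KQT potassium channel gene, LOC100577254, was lower (-1.44 ± 0.12).

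Genes of cell recognition and adhesion changed in both directions, with 10 of 35 higher and 18 lower. LOC100578662, a cadherin of the Flamingo family (CELSR in vertebrates), was 3.92-fold higher, and DE-cadherin (LOC410585) was 4.37-fold lower at 3.03 to 10.5 CPM. Of 26 neuropeptide genes none was higher and 12 were lower. Of 7 cytosolic ribosomal protein genes none passed, and of 5 heat shock genes 1 was lower. The receptor, channel, adhesion and factor lists were made by matching annotated names that come from the study's marker table, so they hold only part of each family and were drawn from genes that marked clusters of these libraries.

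The nearest cells by the rule carry only one of the pair of genes. In 7226 hth-only cells, with at least 2 UMIs of hth and none of bsh, and 461 bsh-only cells, defined the other way, the same test asked what sets bsh/hth cells apart. Against hth-only cells, 547 of 9707 genes were higher (5.64%) and 1348 lower (13.9%), 19.5% in all. Against bsh-only cells, 395 of 7713 genes were higher (5.12%) and 347 lower (4.5%), 9.62% in all.

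Nkx-2.4 and Lhx9 separated bsh/hth cells from hth-only cells and, by less, from bsh-only cells. Nkx-2.4 was at 90.8 to 180.5 CPM in hth-only cells and 434 to 589 CPM in bsh-only cells, against 713 to 1088 in bsh/hth cells (log2 differences 2.89 ± 0.14 and 0.92 ± 0.09). Lhx9 was at 34.0 to 81.6 and 92.5 to 179 CPM in the same classes, against 268 to 494 (2.83 ± 0.13 and 1.42 ± 0.09). The cut gene was low in both classes, at 37.4 to 120 CPM in hth-only and 19.0 to 94.8 CPM in bsh-only cells, with log2 differences of 2.59 ± 0.11 and 3.37 ± 0.17. Thus cut was high only where both genes were present, among these 4 classes, and Nkx-2.4 and Lhx9 were intermediate in bsh-only cells. LOC727170 (2.97 ± 0.19) and LOC410563 (2.72 ± 0.15) also led against hth-only cells.

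The hth-only cells had higher levels of Gad1 and of other transcription factors. Gad1 was at 281 to 654 CPM there against 38.9 to 73.5 in bsh/hth cells (-3.09 ± 0.15), while VAChT was at 123 to 235 against 358 to 744 (1.67 ± 0.06) and ChAT at 66.7 to 123 against 154 to 260 (1.20 ± 0.07). GATA-C (LOC100577332), related to Drosophila grain, was at 174 to 385 CPM against 13.3 to 64.3 (-3.22 ± 0.25), and Kr, the zinc finger factor Krüppel, at 88.1 to 235 against 7.88 to 26.0 (-3.13 ± 0.17). LOC100578090 (-2.80 ± 0.17) and LOC411209 (-2.76 ± 0.14) were lower in bsh/hth cells too. Of the transmitter genes, Vmat (-2.59 ± 0.19), ple (-2.44 ± 0.16), DAT (-3.74 ± 0.32), VGAT (-1.38 ± 0.10) and TDH (-1.32 ± 0.30) were lower in bsh/hth cells, and of the optic lobe markers svp (-2.68 ± 0.24), Lim3 (-2.09 ± 0.20), vsx1 (-1.34 ± 0.15) and Lim1 (-3.15 ± 0.73), the last at 0.0 to 1.31 CPM in bsh/hth cells. TDH lost its call without forager 2 or nurse 1 (adjusted p = 0.024 and 0.014, edgeR), and Lim1 without forager 1 or nurse 1 (0.015 and 0.014). Glia stood among the hth-only cells, whose repo level was 73.8 to 203 CPM and whose summed 9 glial markers came to 559 to 1816 CPM, against 181 to 568 in bsh/hth cells. With cells rich in repo or PLCe left out on both sides, an alternative chosen after seeing the data, 1843 genes were called, 1560 of them in common. Of 64 genes named and called against hth-only cells, 55 then kept their call, 7 lost it and 2 turned direction. Among the 7 were repo (-0.39), whose own UMIs set the removal, and Tret1 (-0.40), Idgf4 (-0.38) and vkg (-0.57). As both kinds of cells were removed at once, the part of glia alone was not tested.

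Against bsh-only cells neither acetylcholine gene passed the test. VAChT was at 516 to 897 CPM and ChAT at 159 to 293 CPM in bsh-only cells, with log2 differences of -0.21 ± 0.11 and -0.20 ± 0.11 that did not pass (adjusted p = 0.16 and 0.20, edgeR). Of 34 recognition and adhesion genes 13 were higher and 7 lower in bsh/hth cells, of 11 acetylcholine receptor genes 3 and 2, of 8 glutamate receptor genes 0 and 2, of 6 GABA and histamine receptor genes 1 and 2, and of 12 monoamine receptor genes 1 and 4. Hiscl1, a chloride channel opened by histamine, the transmitter of insect photoreceptors, was at 621 and 539 CPM in the bsh-only cells of queens, 524 and 592 in nurses and 628 and 361 in foragers, against at most 80.1 in bsh/hth cells (-3.45 ± 0.17). The octopamine receptor gene Oa1 was at 189.5 to 349 against 18.2 to 53.8 (-3.34 ± 0.12), and LOC408688, a Dscam2-like adhesion gene, at 497 to 1004 against 64.9 to 116 (-3.40 ± 0.13). The groups did not overlap for any of these. A second gene annotated as Dscam2-like, LOC408670, differed in the other direction, at 40.3 to 70.7 CPM in bsh-only cells and 211 to 343 in bsh/hth cells (2.31 ± 0.11).

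Transcription factors divided bsh-only from bsh/hth cells as well. Maf (LOC724861), whose Drosophila relative is traffic jam, was at 89.3 to 134 CPM in bsh-only cells and 1.21 to 19.7 in bsh/hth cells (-3.78 ± 0.21), and GATA-C at 241 to 403 against 13.3 to 64.3 (-3.64 ± 0.18). LOC552195 (3.44 ± 0.19), crh-BP (3.26 ± 0.16), LOC100578368 (3.03 ± 0.13) and LOC726068 (3.02 ± 0.10) were higher in bsh/hth cells. Gad1 (-1.20 ± 0.16) and Vmat (-1.82 ± 0.37) were lower. The bsh-only cells of forager 2 stood apart, with 518 CPM of Vmat against 24.5 to 99.8 in the other libraries, and without that library Vmat differed by -1.21. The bsh-only cells were also deeper than bsh/hth cells, with medians of 9331 to 18751 UMIs, and at like depth 442 genes were called in place of 742, 331 of them in common. That setting also left 5 to 30 bsh-only and 33 to 111 bsh/hth cells per library, so depth and cell number cannot be told apart in it. Vmat (0.011) and Gad1 (-0.62) were not called there (adjusted p = 0.999 and 0.29, edgeR).

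**Figure D3:**
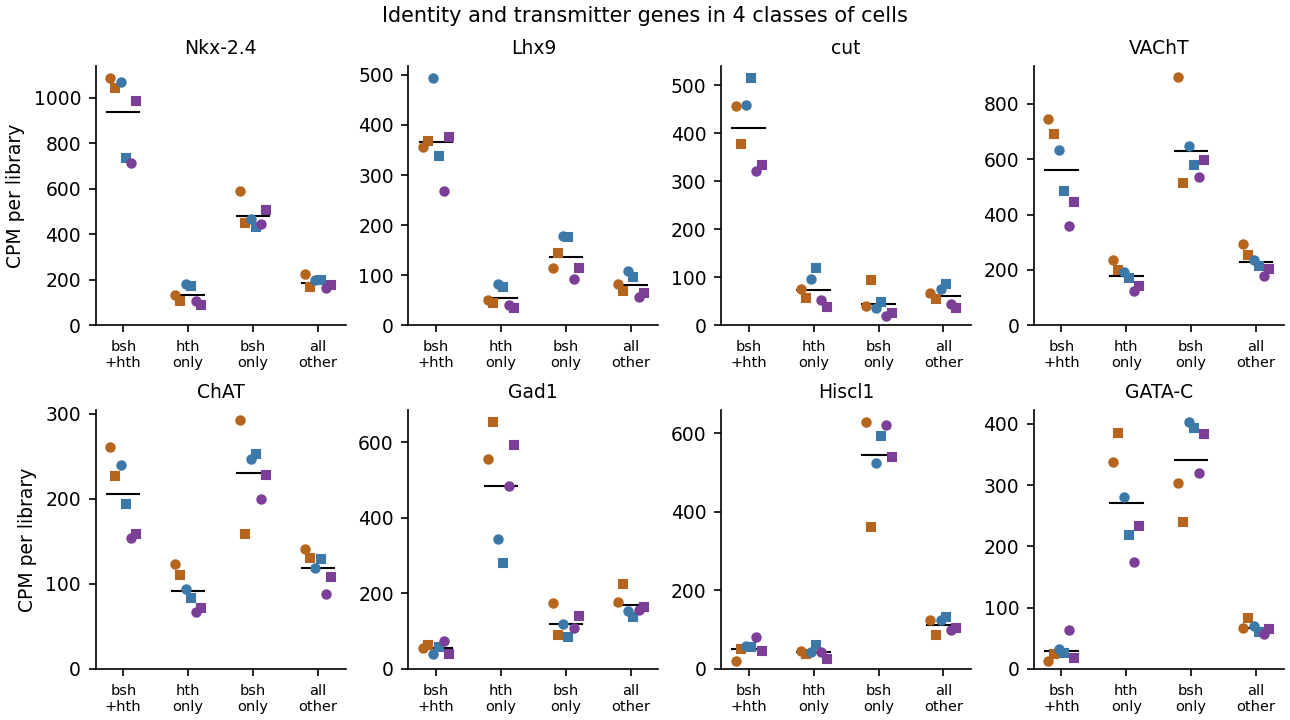
CPM of 8 identity and transmitter genes in bsh/hth cells, hth-only cells, bsh-only cells and all other cells, 1 point per library (orange, foragers; blue, nurses; purple, queens; circle, replicate 1; square, replicate 2) with a line at the mean of the 6 libraries. In bsh/hth cells cut lies at 322 to 515 CPM with the other classes below 120, while Gad1 is highest in hth-only and Hiscl1 in bsh-only cells.

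The bsh/hth cells varied among themselves. Clustering without bsh, hth and the genes called between castes gave 5 groups at a resolution of 0.5 (4 at 0.3 and 6 at 0.8), which are described with no test since the clustered genes define them. Group 1 held 479 cells (58.0%), from 34.7% of the bsh/hth cells of nurse 2 to 68.6% of those of nurse 1, and had the highest levels of LOC410563, meng-po (1195 CPM) and Nkx-2.4 (1169 CPM) relative to the other groups. Group 2 held 125 shallow cells (median 5877 UMIs) with more ebony, the arrestin homolog LOC550791 and mitochondrial ND4L. The cut gene was present in all groups, at 284 to 555 CPM, and VAChT at 500 to 651 CPM.

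Groups 3 and 4 carried genes that were high in other classes of cells. Group 3 (107 cells, median 15737 UMIs) had 312 CPM of the Dscam2-like gene LOC408688, 197 CPM of Hiscl1 and 114 CPM of GATA-C, genes that were high in bsh-only cells, against 23.3, 18.3 and 9.22 CPM in the other bsh/hth cells. Group 4 (93 cells, median 13894 UMIs) had 6086 CPM of PLCe and 5367 CPM of mblk-1 against 589 and 726 CPM in the other bsh/hth cells, and held 47 of the 48 PLCe-rich cells. Both were deeper than group 1, at a median of 10239 UMIs, and whether their droplets held more than 1 cell was not tested. Group 5 was 22 cells, all from nurse 2, so it cannot be told apart from that library.

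**Figure D4:**
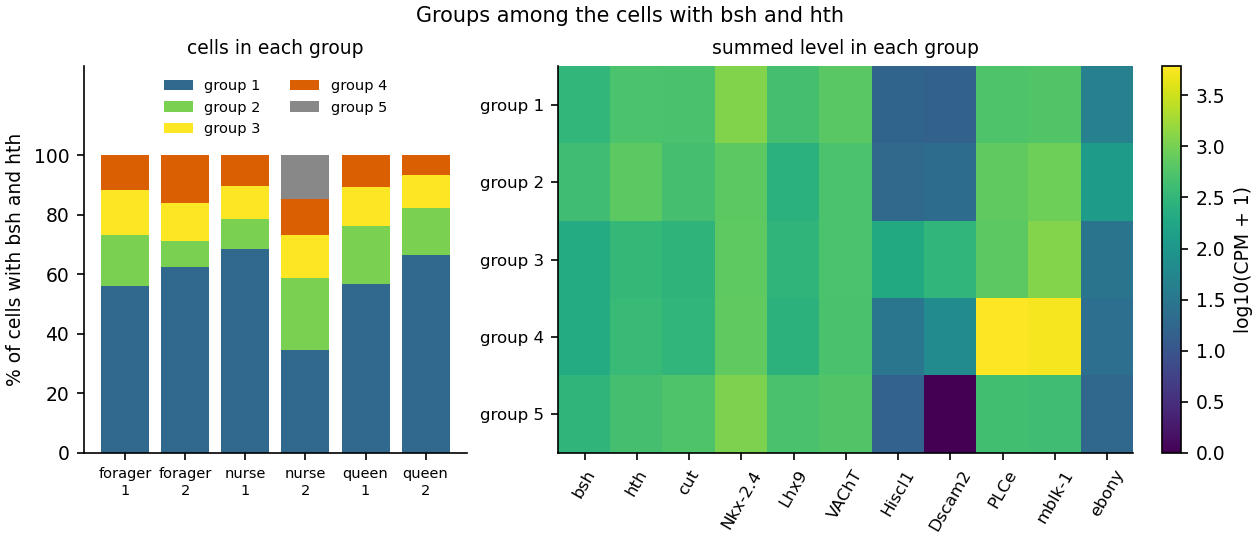
Left, percent of the bsh/hth cells of each library in each of 5 groups. Right, log10(CPM + 1) of 11 genes in the summed cells of each group; bsh, hth, cut and VAChT are present throughout, PLCe and mblk-1 stand out in group 4 and Hiscl1 and Dscam2 (LOC408688) in group 3, and group 5 comes from nurse 2 alone.

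Between castes, queens differed from workers in a small share of genes within bsh/hth cells. With the 6 libraries in 1 edgeR fit, 91 of 7497 genes were higher in queens (1.21%) and 28 lower (0.373%), 1.59% in all. The count depended on single libraries. It was 11 without queen 1, 26 without queen 2, 57 and 44 without forager 1 or 2, and 251 and 323 without nurse 1 or 2. The genes IRP30, LOC107964906, ND1, LOC100576687, ND4L, LOC102653599 and LOC102656354 remained called whichever library was left out. Of these, IRP30 had 1 worker UMI and passed the filter on low counts only through the queens, so its call adds no weight.

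Immune genes had more UMIs in queens than in workers, in the bsh/hth cells and in the other cells. IRP30, an immune responsive protein gene, had 1 UMI in forager 1 and 0 in the other worker libraries, against 96 and 211 UMIs in queens 1 and 2. The ratio of CPM was 1177, with a 95% counting interval of 210 to 46633, and other queen cells had 313 CPM against 0.659 in other worker cells. Hymenoptaecin (65 UMIs in queens and 3 in workers), Apid1 (21 and 3) and Def1 (36 and 16), all antimicrobial peptide genes, were higher as well, these 4 being called among genes of gland, fat body and immunity. Of the 23 genes of that list, 7 passed the filter on low counts, some of them only through the queens, so this count has no weight as a share. The 4 called genes were among those, with few worker UMIs, so their calls add no weight to the UMI counts. Hymenoptaecin could not be tested without queen 2, and Apid1 and Def1 lost their calls without queen 1 (adjusted p = 0.13 and 0.099, edgeR). Apid1 also lost it without forager 1, forager 2 or nurse 1, and Def1 without forager 1, forager 2 or queen 2. The list summed to 28.6 to 70.5 CPM in the bsh/hth cells of workers and 218 and 284 CPM in queens, against 50.8 to 128 and 270 and 823 CPM in the other cells. In the bsh/hth cells of queens this sum rests largely on IRP30, with 307 UMIs against 65 of hymenoptaecin, 36 of Def1 and 21 of Apid1. The part of free RNA was not tested.

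LOC102653599, a long noncoding RNA on linkage group 2, was by far the most abundant of the named genes. It took 99227 and 102900 CPM in queens, 55793 and 45575 in nurses and 44749 and 46313 in foragers, with a log2 difference of 1.15 ± 0.12. Both queens lay above all workers in bsh/hth cells (2.22-fold), and the other cells averaged 99671 CPM in queens and 46535 in workers. The mitochondrial genes ND1 (590 to 698 CPM in workers, 2298 and 1501 in queens) and ND4L (23.4 to 32.3 against 207 and 103), subunits of respiratory complex I, were higher too. The median mitochondrial share was 6.32% and 6.21% in forager, 5.36% and 5.45% in nurse and 7.22% and 6.15% in queen bsh/hth cells, and its part in these differences was not tested. LOC107964906 (2.49 ± 0.23), LOC100576687 (3.34 ± 0.31), LOC411250 (2.46-fold), LOC412197 (1.99 ± 0.21) and LOC100578317, with 53 UMIs in queens and 9 in workers, completed the leading genes. With so few worker UMIs, LOC100578317 too passed the filter on low counts only through the queens. LOC411250 and LOC412197 lost their calls without queen 1 (adjusted p = 0.013 for both, edgeR), and LOC100578317 without either queen library (0.018 and 0.015). Of 7 ribosomal protein genes, Rpl39, Rpl41 and RpL32 were higher, each losing its call without either queen library.

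Otoferlin (LOC724747, linkage group 6, 15046845 to 15064736), a calcium sensor of vesicle release in vertebrate hair cells, behaved otherwise. It was at 53.4 and 90.2 CPM in forager, 44.8 and 76.5 in nurse, and 326 and 227 in queen bsh/hth cells, a log2 difference of 2.17 ± 0.23. In the other cells the workers had 144 to 229 CPM and the queens 157 and 166, so the queen and worker ranges were apart in bsh/hth cells and overlapped elsewhere. Without queen 1 the difference within bsh/hth cells was 1.89 and was no longer called (adjusted p = 0.017, edgeR). The chinmo gene (LOC551086), a zinc finger factor of neuronal timing in Drosophila, was at 21.6 to 61.3 CPM in workers and 123 and 124 in queens (1.67 ± 0.21), and prohormone-3 at 331 to 694 against 718 and 801 (0.71 ± 0.13). Both lost their calls without either queen library, with adjusted p of 0.027 and 0.023 for chinmo and 0.092 and 0.13 for prohormone-3 (edgeR), and prohormone-3 also without forager 1 or 2 (0.062 and 0.032).

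The genes lower in queens included LOC102656354, at 127 to 226 CPM in workers and 32.8 and 28.5 in queens (-2.39 ± 0.22), and LOC726321 (2.29-fold lower). The FABP-like gene, named for fatty acid binding, was at 21.5 to 48.6 CPM in workers and 3.94 and 4.32 in queens. LOC724870, the reductase that feeds electrons to cytochrome P450 enzymes, was at 51.7 to 96.2 against 21.0 and 19.0 (-1.59 ± 0.27). LOC409282 (-1.07 ± 0.15), LOC552309 (-0.96 ± 0.13), LOC412701 (-0.91 ± 0.14), LOC411466 (-0.80 ± 0.13), LOC550870 (-1.17 ± 0.19) and LOC100577670 (-1.22 ± 0.21) were lower too. Of these 10, only LOC102656354 stayed called without queen 1. Hsp90 (-0.74 ± 0.14) and the cadherin LOC100578662 (-0.80 ± 0.14), which was 3.92-fold higher in bsh/hth cells than elsewhere, were also lower in queens, and both lost their calls without either forager or either queen library.

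None of the transmitter and optic lobe genes tested was called between castes. VAChT was lower in queens by 0.57 ± 0.15 on the log2 scale (adjusted p = 0.043, edgeR) and ChAT by 0.48 ± 0.16 (adjusted p = 0.077), both with the queen libraries below all worker libraries. The other cells had the same order. There VAChT was at 177 and 203 CPM in queens against 215 to 294 in workers, and ChAT at 88.4 and 107 against 119 to 141. Between foragers and nurses, edgeR called 0 of 7497 genes (0.0% in all, 0.0% higher and 0.0% lower), with 708 at an unadjusted p under 0.05, and DESeq2 called 3.

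**Figure D5:**
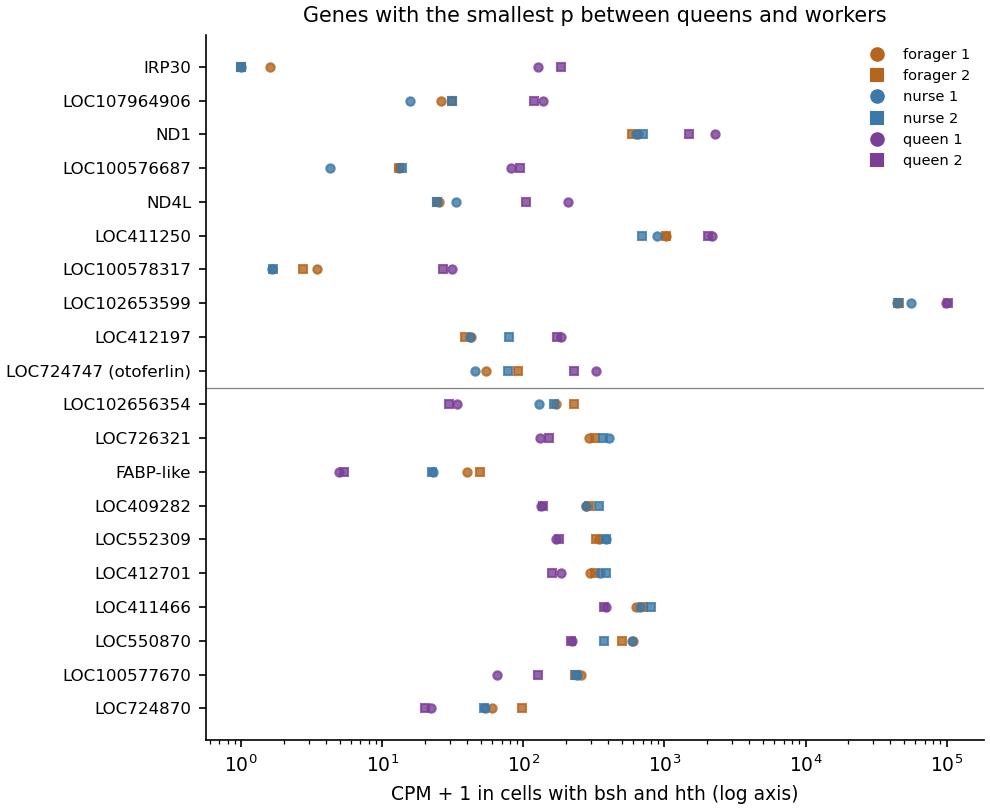
CPM + 1 in bsh/hth cells (log axis) for the 10 genes higher and the 10 lower in queens with the smallest p, 1 point per library (colours and shapes in the legend). Queen points are apart from all worker points for each gene, with IRP30 near the floor in workers and LOC102653599 at 99227 and 102900 CPM in queens. The genes were chosen by p in these same libraries, so this separation is no further evidence.

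Whether a queen-worker difference was larger in bsh/hth cells than in the rest of the brain was tested as an interaction in edgeR. It passed for 49 of 10986 genes in the upward direction (0.446%) and 29 downward (0.264%), 0.71% in all. Otoferlin led, with a difference of 2.21 ± 0.14 between the log2 changes (adjusted p = 1.47e-51, edgeR). With 2 queen and 4 worker pools, a p this small rests mostly on a spread estimated across genes. It does not measure the spread of this gene between pools. DESeq2 called 22 genes in place of 78 in this test, and gave otoferlin a difference of 2.21 (adjusted p = 1.16e-16, DESeq2). The kakusei noncoding RNA, known in honeybees as induced by neural activity and named here after its values were seen, was at 143 and 114 CPM in queen and 58.8 to 89.8 CPM in worker bsh/hth cells, while the other cells had 36.7 and 52.1 in queens and 69.8 to 103 in workers (1.75 ± 0.16). It was thus higher in queens here and lower in queens elsewhere. For IRP30 (3.57 ± 2.71, adjusted p = 0.90) and LOC102653599 (-0.05 ± 0.10, adjusted p = 0.97, edgeR), no difference between bsh/hth cells and the rest was detected.

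In bulk brain RNA, which avoids dissociation, bsh was at 1.95 and 2.45 CPM in queens, 2.44 and 3.41 in nurses and 5.02 and 6.08 in foragers, from 28 to 83 expected counts per library. The hth level was 10.3 and 6.94 CPM in queens, 7.45 and 12.5 in nurses and 18.0 and 21.1 in foragers. Foragers were highest for both genes, while queens and nurses overlapped. These CPM are relative to each library's total, and the test scaled the totals by TMM factors that ran from 0.714 in nurse 1 to 1.24 in forager 1. After that scaling, bsh was at 1.81 and 2.27 CPM in queens, 3.42 and 3.72 in nurses and 4.05 and 5.78 in foragers, and hth at 9.497 and 6.42, 10.4 and 13.6, and 14.5 and 20.05 CPM in the same order. On this scale queens lay below nurses for both genes, and foragers stayed highest by a smaller margin. Queens differed from workers by -1.03 ± 0.31 for bsh and -0.86 ± 0.25 for hth on the log2 scale (adjusted p = 0.041 and 0.038, edgeR), which did not meet the threshold of an adjusted p under 0.01 and a log2 difference over 1 that 9.71% of 9932 bulk genes met. Foragers differed from nurses by 0.46 ± 0.33 and 0.52 ± 0.28 (adjusted p = 0.59 and 0.46), in a comparison that called 0.0101% of genes. In bulk RNA, fewer cells of a type and less RNA per cell cannot be told apart, and hth is also expressed by the 7226 hth-only cells.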

How the data were processed

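Single-cell UMI counts per gene were deposited by the authors as Cell Ranger 3.1.0 matrices (Amel_HAv3.1), and bulk expected counts as RSEM output after Trimmomatic 0.39 and STAR. The expected counts were rounded to whole numbers. The study's notes also name Seurat 3.1.5 and DESeq2 1.32.0. Mitochondrial genes were those with the prefix MT-, and 12268 of 12292 features matched RefSeq numbers. UMIs were summed per library and class of cells, scaled by TMM, filtered by filterByExpr and tested with edgeR 4.0.16 (limma 3.58.1, R 4.3.3), without bsh and hth and with Benjamini-Hochberg adjustment. The study calls its replicates independent, and the library was the replicate. Sums used Python 3.11.15, numpy 2.4.6, pandas 2.3.3 and scipy 1.17.1, groups igraph 0.11.9 and leidenalg 0.10.2, and plots matplotlib 3.10.9. The fits were tested on simulated data.

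Named were all genes of the optic lobe and transmitter lists, the 15 highest and 5 lowest genes against other cells (at least 100 CPM on the higher side, same direction in 6 libraries), 5 each way against hth-only and bsh-only cells, the 10 smallest p each way between castes, and up to 4 examples of other lists. The cells and lists were chosen with earlier results of these data known. Markers and gene names come from the study's tables, which were drawn on these samples and are not independent evidence. Alternatives were DESeq2 1.42.0, upper quartile scaling, no filter on low counts, a replicate block, each library left out, the study's upper limit on UMIs, comparison cells at like depth, and glia or Kenyon cells left out. The Kenyon rule set at first (at least 4 UMIs of PLCe and 2 of mub) was met by 74.4% of kept cells and 607 bsh/hth cells, so a rule of 50 UMIs of PLCe per 10000, or 4 of repo, was added after seeing the data. Intervals cover counting error only.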

Additional observations from a re-analysis of the deposited data

Results flagged for a closer look

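The queen-worker difference in bsh/hth cells differed from that in the other cells for 78 genes by the interaction test of edgeR, and 7 of them were among the genes named between castes. Ranges are over the 8 alternatives of that test.

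Otoferlin (LOC724747) had a difference of 2.21 ± 0.14 (SE) between the log2 changes (adjusted p = 1.47e-51, edgeR), with a range of 1.91 to 2.49, and was called in 8 of 8. Its p rests mostly on a spread estimated across genes rather than on the spread of this gene between pools. LOC107964906, a long noncoding RNA, had 1.33 ± 0.18 (1.01 to 1.69, called in 8), with 138 and 118 CPM in queens and 14.7 to 30.3 in workers, against 89.4 and 124 and 44.7 to 55.4 in the other cells. LOC100576687 had 1.58 ± 0.26 (1.20 to 2.03, called in 6), and other queen cells had 31.8 and 27.0 CPM against 6.89 to 11.1 in workers. LOC412197 had 0.93 ± 0.15 (0.68 to 1.16, called in 7).

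LOC102656354 had -1.003 ± 0.20 (-1.18 to -0.79, called in 6), and other cells had 124 and 143 CPM in queens and 316 to 466 in workers. LOC550870 had -0.87 ± 0.13 (-1.002 to -0.73, called in 8), with 215 and 221 CPM in queens and 375 to 596 in workers, against 81.1 and 88.7 and 97.1 to 129 in the other cells. LOC100577670 had -0.78 ± 0.15 (-1.21 to -0.55, called in 6), where queens 1 and 2 differed, at 64.3 and 125 CPM in bsh/hth cells.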

How the results depend on the processing

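Having 2 libraries per caste limits the caste comparisons, and no share of cells could pass 0.05. Differences in shares kept their sign in all alternatives, and as each library was left out the queen minus worker difference was -0.461 to -0.166 points and the forager minus nurse difference -0.452 to -0.0737 points. With the first Kenyon or glia rule they shrank to -0.0367 and -0.0534 points, and with 1 UMI of each gene they were -0.859 and -0.564 points. Counts of called genes ranged over left-out libraries from 1546 to 1898 against other cells, 1447 to 1834 against hth-only and 634 to 778 against bsh-only cells, 11 to 323 for queens against workers, 0 to 13 for foragers against nurses and 30 to 112 for the interaction. With the first Kenyon rule 1235 genes were called against hth-only cells, 416 against bsh-only cells and 1 between foragers and nurses, and at like depth 442 against bsh-only cells. With no filter on low counts 508 genes were called for queens and 79 for foragers, and DESeq2 called 3 for foragers and 22 in the interaction. The replicate block gave 246 genes for queens and 5 for foragers. The labels state no pairing of same-numbered libraries. Deviations of same-numbered libraries correlated at 0.15, -0.06 and -0.10 in bsh/hth cells and 0.02, -0.03 and -0.10 in bulk. Such values cannot show whether these libraries were handled together. The causes were not tested.

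Of the fits of named genes, 908 of 949 against other cells, 783 of 822 against hth-only, 503 of 527 against bsh-only and 312 of 384 for queens kept their call, and 0, 6, 2 and 0 turned direction. Against bsh-only cells at like depth these were Vmat (0.011) and IRP30 (-0.0049). Against hth-only cells they were Apid1 with DESeq2 (0.26), without queen 2 (0.20, in a range down to -3.99 without queen 1) and without repo- or PLCe-rich cells (0.40), IRP30 with the first Kenyon rule (0.34) and without repo- or PLCe-rich cells (0.94), and MS at like depth (0.061).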
